A study of Homo sapiens with 8 samples.

Results

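ZNF genes are human genes whose approved symbol is ZNF followed by a number, most of them coding for proteins with arrays of C2H2 zinc fingers. All rows of the deposited table whose symbol had this form were taken, which gave 92 of its 3666 genes. Annotation placed 90 of them among protein-coding genes and 2 among non-coding RNA genes: ZNF32-AS2 as antisense and ZNF295-AS1, antisense by its symbol alone, as lincRNA. Messenger RNA had been sequenced from the human pancreatic ductal adenocarcinoma line MIA PaCa-2, sorted by flow cytometry into a fraction with low permeability to lactic acid (PHLac-low) and a fraction with high permeability (PHLac-high), a phenotype read in the study as metabolic rate. The sort was repeated 4 times and each repeat gave 1 library per fraction, so that 8 libraries formed 4 pairs. Both fractions were wild type, were grown in RPMI with serum, and had been exposed for a short time to medium with lactate and then washed, as the sort requires. The labels give no drug or other agent, and nothing in them says whether the repeats came from separate cultures, so p-values measure only the spread between these samples.

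A C2H2 zinc finger is a small fold held by a zinc ion, and a row of fingers reads a stretch of DNA. Many ZNF proteins also carry a KRAB domain, which recruits the corepressor TRIM28 and through it the histone methyltransferase SETDB1, and these proteins are best known for silencing transposable elements. KRAB ZNF genes arose by repeated duplication and lie in clusters, above all on chromosome 19, while a smaller number of ZNF proteins without KRAB act as promoter factors, corepressors, RNA-binding proteins or ribosome assembly factors.

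The table holds only genes that the authors listed at an adjusted p-value of 0.05 or below, so genes outside it were not analysed here and no share of all ZNF genes can be given. The annotation used here has 512 protein-coding ZNF genes, 248 of them on chromosome 19 and 342 with a KRAB domain. Values are normalised counts, that is, reads per gene divided by the authors' size factor for the library. Reads falling in the 92 genes numbered from 60428 to 167985 per library, and the lowest number of reads for a single ZNF gene in any library was 7. Repeat 4 stood apart. ZNF genes took 0.560% of the reads of listed genes in its PHLac-low library and 0.539% in its PHLac-high library, against 0.662 to 0.749% in the other 6 libraries. Of 19 marker genes looked for, 4 were in the table. They comprised the epithelial keratin KRT19, 1 of 6 markers of the carcinoma cells (VIM included), and 3 of 13 markers of other cell types. KRT19 had a mean of 17367 ± 3619 normalised counts in the low and 20360 ± 3930.5 in the high fraction (SD, n = 4). The leukocyte gene PTPRC was at 262 ± 107 and 103 ± 43.4, the macrophage gene CD68 at 1428 ± 413 and 2189 ± 942, and the fibroblast collagen gene COL1A1 at 137 ± 56.6 and 85.0 ± 29.2 (PHLac-low and PHLac-high). Their part in the ZNF results was not tested, and in bulk RNA fewer cells expressing a gene and less RNA of it per cell cannot be told apart.

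ZNF transcripts moved in both directions: 47 were higher and 45 lower in PHLac-high under the authors' scaling. Changes are given as log2(normalised count + 1), PHLac-high minus PHLac-low, averaged over the repeats. By limma with the repeat as a block, which compares the 2 libraries of each repeat with each other, all 92 passed an adjusted p of 0.05, as did 99.9% of the listed genes (58.7% higher, 41.2% lower), which had been selected for a difference in these same libraries. Without repeat 4 all 92 passed as well, beside 98.9% of the listed genes. Of all listed genes 58.8% were higher, against 51.1% of the ZNF genes, and the median log2 change was 0.25 over all listed genes and 0.22 over the ZNF genes. Of the 92 genes, 88 kept 1 direction in all 4 repeats (95.7%, against 96.1% of all listed genes), and the numbers higher in repeats 1 to 4 were 47, 47, 46 and 48. The exceptions were ZNF134, ZNF184, ZNF570 and ZNF295-AS1. In 37 ZNF genes (27 higher, 10 lower) no PHLac-high library overlapped any PHLac-low library. That is 40.2%, against 36.7% of all listed genes. Without the block 38 ZNF genes passed (41.3%; 26 higher, 12 lower), against 31% of all listed genes (20.3% higher, 10.7% lower). The next 2 settings were computed over the listed genes alone. These were selected for a difference, so the settings can take out part of it. Scaling the libraries by their upper quartile lowered the median change of all listed genes from 0.25 to 0.02. Then 67 ZNF genes passed, 22 higher and 45 lower, against 64.4% of all listed genes (23.2% higher, 41.2% lower). After correction of each library for GC content and transcript length 71 passed, 32 higher and 39 lower, against 64.2% (33.6% higher, 30.6% lower).

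**Figure D1:**
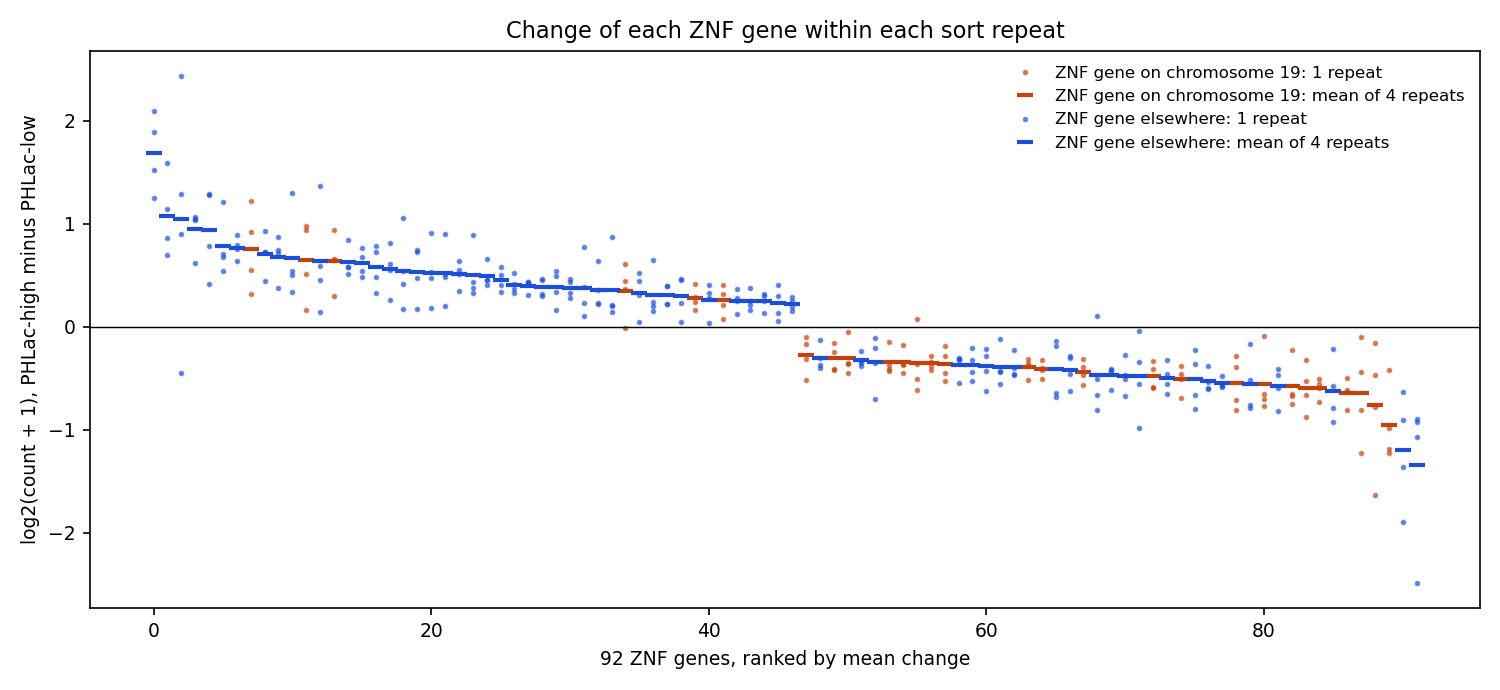
Change of each of the 92 ZNF genes, ranked from the largest increase to the largest decrease. The vertical axis is the log2 difference of normalised count + 1, PHLac-high minus PHLac-low; points are single repeats, bars the mean of 4 repeats, and colour separates chromosome 19 from other chromosomes. The 6 genes of chromosome 19 with an increase are scattered among 47, while 22 of the 45 decreases belong to it. Chromosome 19 holds 28 of the 92 listed ZNF genes and 248 of the 512 annotated protein-coding ZNF genes.

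Changes were modest in size. In the authors' deposited table the smallest increase was 0.22 and the smallest decrease -0.27 on the log2 scale. The median size was 0.48, against 0.42 over all listed genes, and 50 of the 92 changed by less than 0.5. Log2 fold changes in the authors' deposited table ran from -1.40 for ZNF660 to 1.68 for ZNF703, and 5 of the 92 reached 1 in either direction. Mean normalised counts ran from 22.9 to 4148 with a median of 571, below the median of 1335 over all listed genes, and 18 ZNF genes lay above that median. Per kilobase of transcript, levels ran from 3.92 normalised counts for ZNF660 to 1633 for ZNF622, followed by 1293 for ZNF787 and 997 for ZNF581.

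The largest change belonged to ZNF703, a corepressor of the NET family whose gene is amplified in luminal breast cancer. From repeat 1 to repeat 4, ZNF703 was at 431, 592, 549 and 274 normalised counts in PHLac-low cells and at 1596, 1406, 1578 and 1176 in PHLac-high cells. The lowest PHLac-high value was above the highest PHLac-low value by a wide margin, although repeat 4 was the lowest of both fractions. The gene rose by 1.69 ± 0.13 on the log2 scale (SE of the fit; limma with block, adjusted p = 5.59e-05), a 3.22-fold difference. Its paralogue ZNF503 rose too. ZNF503 was at 595, 743, 693 and 439.6 in PHLac-low and at 1085, 964, 1162 and 720.2 in PHLac-high, which gave 0.67 ± 0.09 (limma adjusted p = 0.000509). Here the ranges overlapped, because the PHLac-high library of repeat 4 lay below the PHLac-low library of repeat 2, but each repeat moved upwards.

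ZNF622, a factor in the maturation of the large ribosomal subunit, was the most abundant ZNF transcript per kilobase and among the steadiest. It was at 1915, 2063, 2122 and 2113 in PHLac-low and at 3537, 3578, 3293 and 3569 in PHLac-high. The fractions did not overlap and differed 1.70-fold, a log2 change of 0.77 ± 0.06 (limma adjusted p = 7.17e-05). ZNF326, a subunit of the DBIRD complex that links transcript elongation to splicing, rose by 0.38 ± 0.06 (adjusted p = 0.00112). Its values were 1788, 1355, 1519 and 2668 in PHLac-low and 2162, 1868, 1907 and 3610.5 in PHLac-high. Both libraries of repeat 4 were far above the others, and without the repeat as a block limma gave ZNF326 an adjusted p of 0.204.

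Of the promoter and chromatin factors looked for by name, 5 were among the listed genes, and the others have no value here. Of these 5, 4 were higher, with ZNF148 at about 0 under 2 of the settings below. ZNF281, which binds GC-rich promoter elements, was at 980.2, 1251, 1010.5 and 1095 in PHLac-low and at 1861, 1701, 1669 and 1805 in PHLac-high. It rose by 0.70 ± 0.09 (limma adjusted p = 0.000263) with no overlap between the fractions. ZNF644, a partner of the H3K9 methyltransferases EHMT1 and EHMT2, was at 1729.8, 2015, 2053 and 1835 in PHLac-low and at 2983, 2807, 3392 and 2305 in PHLac-high. It rose by 0.58 ± 0.08 (adjusted p = 0.00059), again without overlap. ZNF143, a promoter factor also found at chromatin loop anchors, rose by 0.25 ± 0.07, and ZNF148, a GC-box factor, by 0.22 ± 0.07 (adjusted p of 0.0107 and 0.0165). Both sets of values overlapped, and neither gene passed without the block (0.152 and 0.163). The gene that fell was ZNF687, a partner of the chromatin reader ZMYND8. It was at 3547, 3210.1, 2953 and 2636 in PHLac-low and at 2623, 2366, 2000.4 and 2420.2 in PHLac-high, a change of -0.39 ± 0.08 (limma adjusted p = 0.0023). Of 46 ZNF genes with a described function that were looked for by name, 9 were in the table, and 8 of these 9 were higher, against 58.8% of all listed genes. Of the 8, ZNF143, ZNF148 and ZNF326 passed neither under upper quartile scaling nor after correction for GC content and length.

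**Figure D2:**
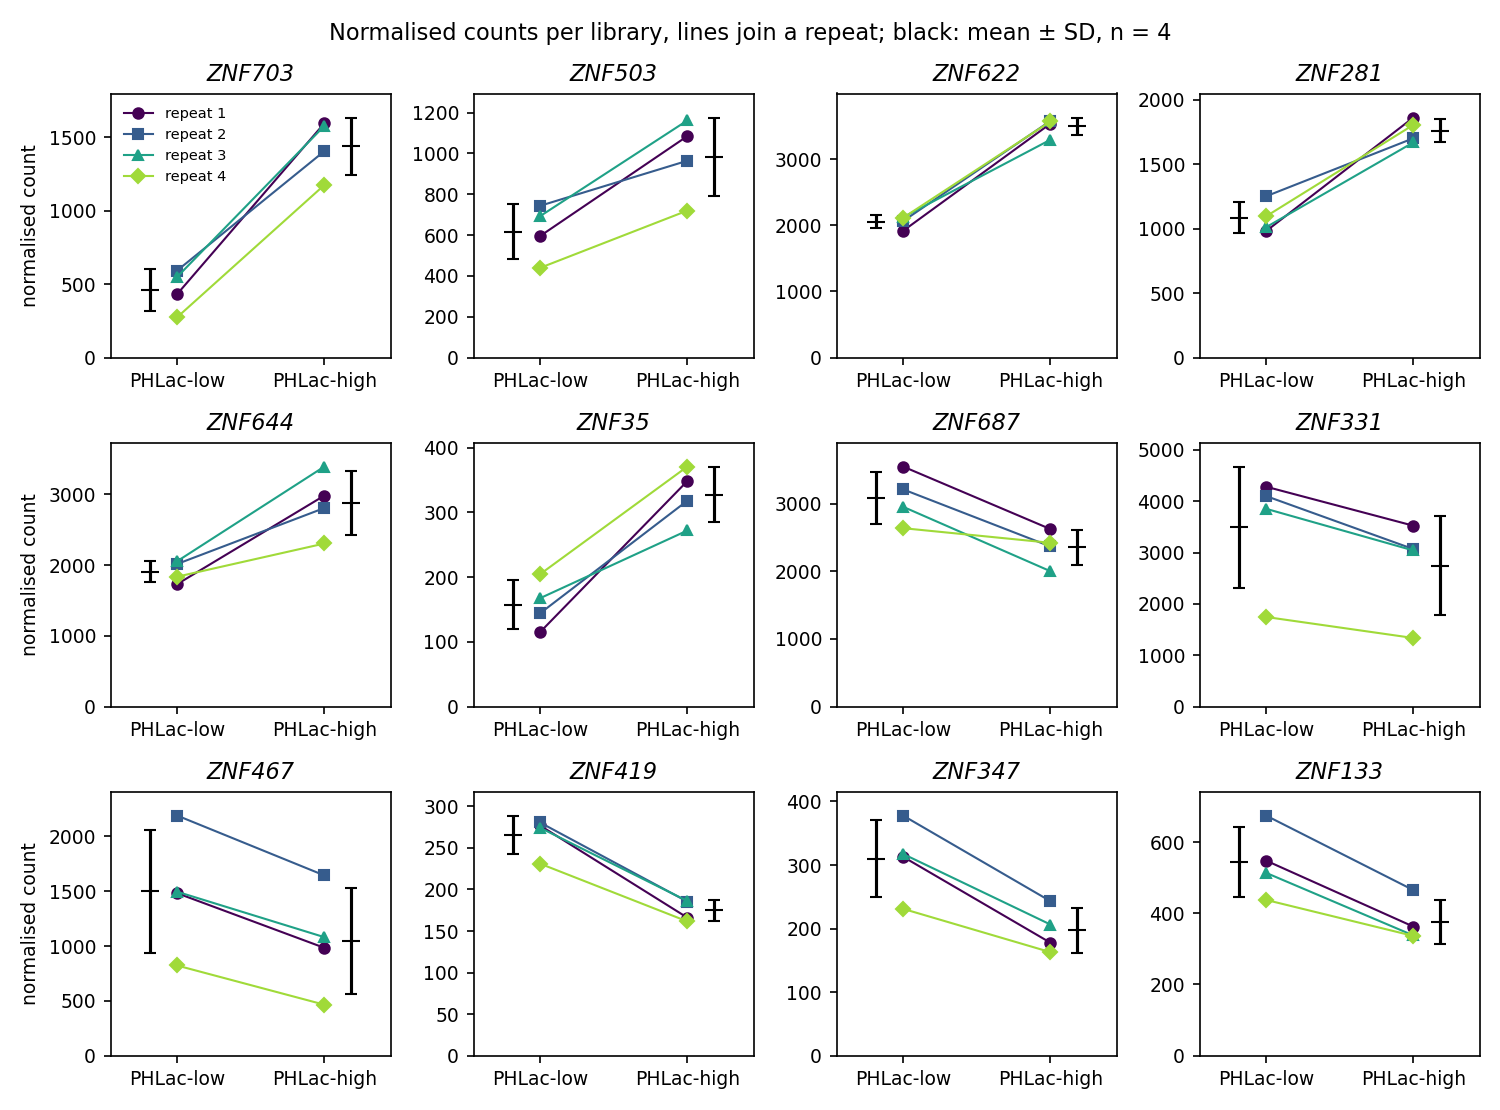
Normalised counts of 12 ZNF genes in the 8 libraries; the horizontal axis is the sorted fraction, each line joins the libraries of 1 repeat, and black bars show mean ± SD (n = 4). ZNF703, ZNF622, ZNF281, ZNF644, ZNF35, ZNF687 and ZNF419 have fractions that do not overlap, whereas ZNF331 and ZNF467 fall in each repeat within a wide spread between repeats.

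The 8 largest increases at a mean of 200 normalised counts or more held 4 further genes. ZNF35, a finger-only protein encoded on chromosome 3, was at 115, 144, 167 and 204 in PHLac-low and at 348, 318, 272 and 371 in PHLac-high, an increase of 1.07 ± 0.16 (limma adjusted p = 0.000605). ZNF674, a KRAB protein gene on the X chromosome, was at 327, 295, 372 and 269 against 677, 619.9, 765 and 413, an increase of 0.94 ± 0.11 (adjusted p = 0.000197). ZNF597, an imprinted KRAB gene on chromosome 16, was at 869, 859, 979 and 476 against 1264, 1398, 1569 and 1099, an increase of 0.78 ± 0.11 (adjusted p = 0.000498). In all of these the fractions were separate. ZNF574, on chromosome 19, was at 698, 1125, 854 and 920.3 against 1631, 1405, 1248 and 1737 and rose by 0.75 ± 0.14 (adjusted p = 0.00149). The most highly counted ZNF transcript, the SCAN-domain gene ZNF24, rose little. ZNF24 had means of 3766 ± 59.3 (PHLac-low) and 4531 ± 529 (PHLac-high; SD, n = 4), a log2 change of 0.26 ± 0.07 (adjusted p = 0.00736, and 0.0776 without the block), and ZNF316 at 2625 ± 529 and 3217 ± 445 changed by 0.31 ± 0.06 (adjusted p = 0.00243, and 0.135 without the block). Upper quartile scaling took ZNF24, ZNF316, ZNF326, ZNF143 and ZNF148 out of the calls, and ZNF148 was then at -0.00058. The correction for GC content and length took out ZNF24, ZNF326, ZNF143, ZNF775 and ZNF148, the last at -0.0259.

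Of the 8 largest decreases at a mean of 200 or more, 4 lay on chromosome 19 and had a KRAB domain. ZNF347 was at 313, 378, 317 and 231 in PHLac-low and at 178, 243, 206 and 163 in PHLac-high and changed by -0.64 ± 0.11 on the log2 scale (limma adjusted p = 0.00115). ZNF419 was at 277, 281, 274 and 231 against 166, 185, 186 and 162, and changed by -0.60 ± 0.11 (adjusted p = 0.00163). The ZNF419 fractions did not overlap, while for ZNF347 the PHLac-high library of repeat 2 lay above the PHLac-low library of repeat 4. ZNF577 (262 ± 32.4 against 177 ± 35.9) changed by -0.58 ± 0.13 and ZNF611 (265 ± 27.1 against 180.0 ± 22.1) by -0.56 ± 0.14 (adjusted p of 0.00342 and 0.00579). The remaining 4 lay elsewhere. ZNF467, a factor known for directing marrow precursors between bone and fat, was at 1483, 2191, 1496 and 823 against 983, 1644, 1081 and 465, a change of -0.57 ± 0.08 (adjusted p = 0.000593, and 0.198 without the block). ZNF775 changed by -0.56 ± 0.14, the SCAN-domain gene ZNF500 by -0.55 ± 0.10 (adjusted p = 0.0514 without the block) and the KRAB repressor gene ZNF133 by -0.53 ± 0.09 (adjusted p of 0.0051, 0.00175 and 0.00112). The imprinted KRAB gene ZNF331, second in mean count, was at 4285, 4102, 3854 and 1747 in PHLac-low and at 3524, 3068, 3042 and 1337 in PHLac-high. It was lower in each repeat, with a change of -0.36 ± 0.06 on the log2 scale (adjusted p = 0.000854). Repeat 4 lay far below the other repeats in both fractions, and without the block the adjusted p was 0.352.

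Some genes outside the naming rule were picked out after their values were seen. The study's title names IL6R and STAT3, and ZNF341 is an activator of STAT3 transcription. STAT3 itself was not among the listed genes and has no value here. ZNF341 was at 344, 471, 290.1 and 271 in PHLac-low and at 215, 390.0, 204 and 196 in PHLac-high. It was lower in each repeat, with a log2 change of -0.48 ± 0.11 (limma adjusted p = 0.00372), with overlapping ranges and an adjusted p of 0.139 without the block. ZNF808, a KRAB gene whose loss causes pancreatic agenesis in humans, was at 366, 398, 335 and 193 in PHLac-low and at 226, 279.6, 243 and 148 in PHLac-high. It changed by -0.51 ± 0.11 (adjusted p = 0.00285, and 0.133 without the block), again with overlap and with repeat 4 lowest in both fractions. ZNF202, a KRAB and SCAN repressor of lipid metabolism genes, went the other way, from 283, 329.9, 375 and 364 to 498, 482, 571 and 436, a change of 0.56 ± 0.11 (adjusted p = 0.00217) without overlap. ZNF469, mutated in brittle cornea syndrome, changed by 0.64 ± 0.17, and the BTB-domain gene ZNF131 by 0.49 ± 0.06. ZNF692, a repressor of a gluconeogenesis gene, changed by -0.50 ± 0.08, and ZNF618, a partner of UHRF2, by -0.39 ± 0.08.

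The largest decreases of coding genes, also singled out afterwards, were in low transcripts: ZNF660 (33.1 ± 11.7 against 12.7 ± 6.16) changed by -1.35 ± 0.36 and ZNF792 (176 ± 40.8 against 94.5 ± 43.7) by -0.96 ± 0.17. The 2 non-coding genes were also low. ZNF32-AS2 was at 36.4 ± 8.05 and 16.3 ± 8.28, and ZNF295-AS1 at 31.4 ± 11.2 and 67.2 ± 26.2 with a decrease in repeat 4. Whether the counting used strand is not given in the sources used here, so reads of these genes and of overlapping genes cannot be told apart. ZNF286A (0.31 ± 0.10) and its near-identical copy ZNF286B (0.52 ± 0.13) can share reads and are likewise uncertain.

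ZNF genes that were higher and ZNF genes that were lower differed in where they lie; what follows are counts and medians, with no test of the difference between gene groups. On chromosome 19, 6 of 28 ZNF genes were higher (21.4%) and the median change was -0.38. On the other chromosomes 41 of 64 were higher (64.1%) with a median of 0.32. In repeats 1 to 4 the chromosome 19 median was -0.45, -0.37, -0.36 and -0.35, and the median elsewhere 0.29, 0.24, 0.21 and 0.33. The 2 ranges did not meet. The median on chromosome 19 minus that elsewhere was -0.70 on the log2 scale under the authors' scaling and -0.73 after correction for GC content and length. Upper quartile scaling moved both medians down (to -0.60 and 0.09). It divides each library by 1 number and shifts all genes nearly alike, so the difference stays at -0.70 by construction. The number above 0 on chromosome 19 was 6 in each of the 12 settings run, and elsewhere it was 39 of 64 under upper quartile scaling and under the correction. Several settings could hardly move a direction. Dropping the block leaves the mean changes as they are, and the pseudocount of 0.1, edgeR and DESeq2 keep the same size factors. The calls moved more. Without the block, 3 ZNF genes of chromosome 19 passed as higher and 6 as lower, against 23 and 6 elsewhere. Of all listed genes 20.3% then passed as higher and 10.7% as lower. Under upper quartile scaling the calls were 3 higher and 22 lower on chromosome 19 and 19 higher and 23 lower elsewhere. Lower calls outnumbered higher ones in both, as they did over all listed genes (23.2% higher, 41.2% lower). After the correction they were 4 higher and 21 lower on chromosome 19 and 28 higher and 18 lower elsewhere, against 33.6% higher and 30.6% lower of all listed genes. The 6 above 0 on chromosome 19 were ZNF317, ZNF574, ZNF787, ZNF416, ZNF134 and ZNF551.

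Other listed genes of chromosome 19 were lower more often than higher as well: 86 of 232 were higher (37.1%), with a median of -0.32, against 60.8% of 3196 non-ZNF genes elsewhere. These neighbours had GC-rich transcripts, with a median GC content of 60.3%, whereas the ZNF genes of chromosome 19 had a median of 43.1%. Among non-ZNF genes the share that was higher fell from 80.7% in the lowest quintile of GC content to 26.7% in the highest. ZNF genes of other chromosomes followed this order over the first 4 quintiles, with 77.8, 78.6, 55.6 and 33.3% higher against 80.7, 76.2, 64.8 and 48.0% of non-ZNF genes, and departed from it in the highest, with 7 of 11 higher. ZNF genes of chromosome 19 departed from it in the lowest and the second. In the lowest quintile (29.8 to 41.8% GC) none of 11 ZNF genes of chromosome 19 was higher, against 14 of 18 ZNF genes elsewhere. These 2 sets also differed in level, with medians of 364 and 1025 normalised counts. The only non-ZNF gene of chromosome 19 in this quintile was lower too. In the highest quintile (59.9 to 76.0%) 9 of 14 ZNF genes were higher, among them ZNF703, ZNF503, ZNF574 and ZNF469. Across genes, Spearman's rho of the change with GC content was 0.03 over 90 coding ZNF genes and -0.27 over 3428 other genes, as a description of genes that share the same libraries.

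**Figure D3:**
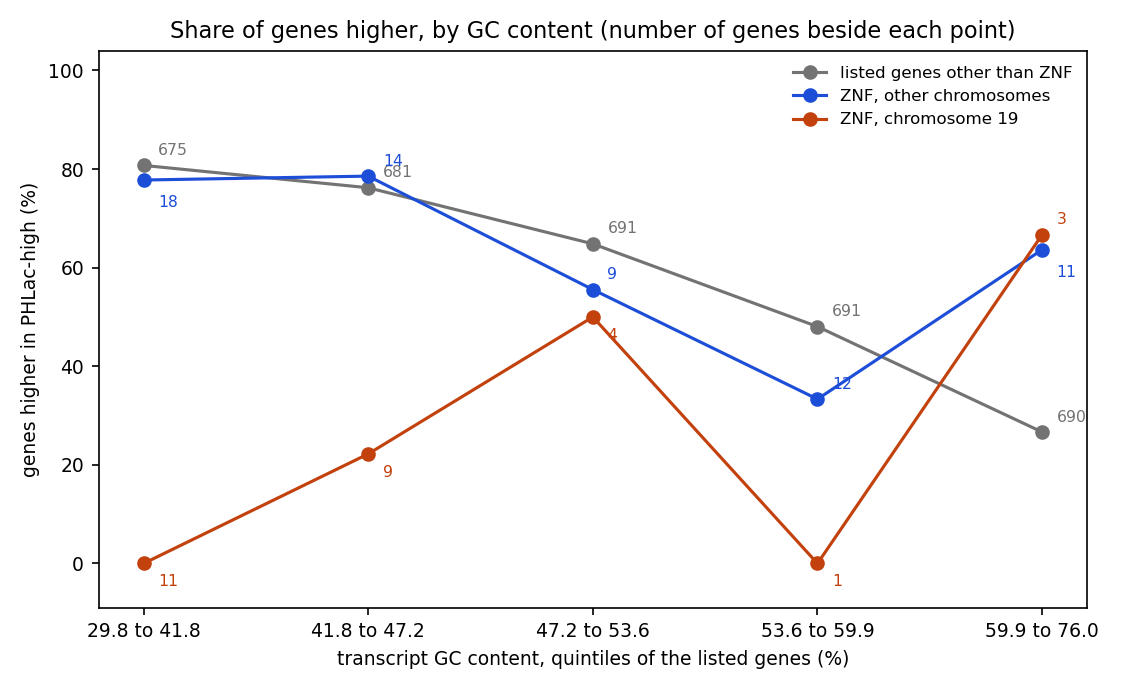
Share of genes higher in PHLac-high (vertical axis, %) in quintiles of the transcript GC content of the listed genes (horizontal axis, %), with the number of genes beside each point. Non-ZNF genes go from 80.7% to 26.7%, ZNF genes of other chromosomes start near them at 77.8%, and ZNF genes of chromosome 19 start at 0 of 11; the points with 1, 3 and 4 genes carry little weight.

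The KRAB domain, searched in the protein of each coding gene, divided the family in the same sense. Of 48 ZNF genes with KRAB 19 were higher (median -0.34), and of 42 in which none was found 27 were higher (median 0.30). Chromosome and domain overlapped, since 22 of the 28 chromosome 19 genes had KRAB. Read together, 3 of 22 KRAB genes on chromosome 19 were higher (median -0.43), against 16 of 26 KRAB genes elsewhere (0.31) and 24 of 36 genes without KRAB elsewhere (0.37). The 6 chromosome 19 genes without KRAB comprised 3 higher and 3 lower. Away from chromosome 19, the shares with and without the domain were 61.5% and 66.7%. KRAB genes elsewhere that were higher ran from 0.25 (ZNF655) to 0.94 (ZNF674), and those that were lower from -0.30 (ZNF783) to -0.63 (ZNF658). The number of fingers, counted by a residue pattern that finds none in ZNF703, ZNF503 and ZNF862, also differed: genes that were higher had a median of 7.5 C2H2 fingers and genes that were lower 10.5, but of genes with 10 or more fingers 13 of 22 were higher away from chromosome 19 and 5 of 21 on it. Transcript length (medians of 3951 and 3658 bases for higher and lower coding genes), transcript GC content (44.6 and 45.6%) and promoter GC content (62.7 and 63.2%) were close in the 2 sets.

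**Figure D4:**
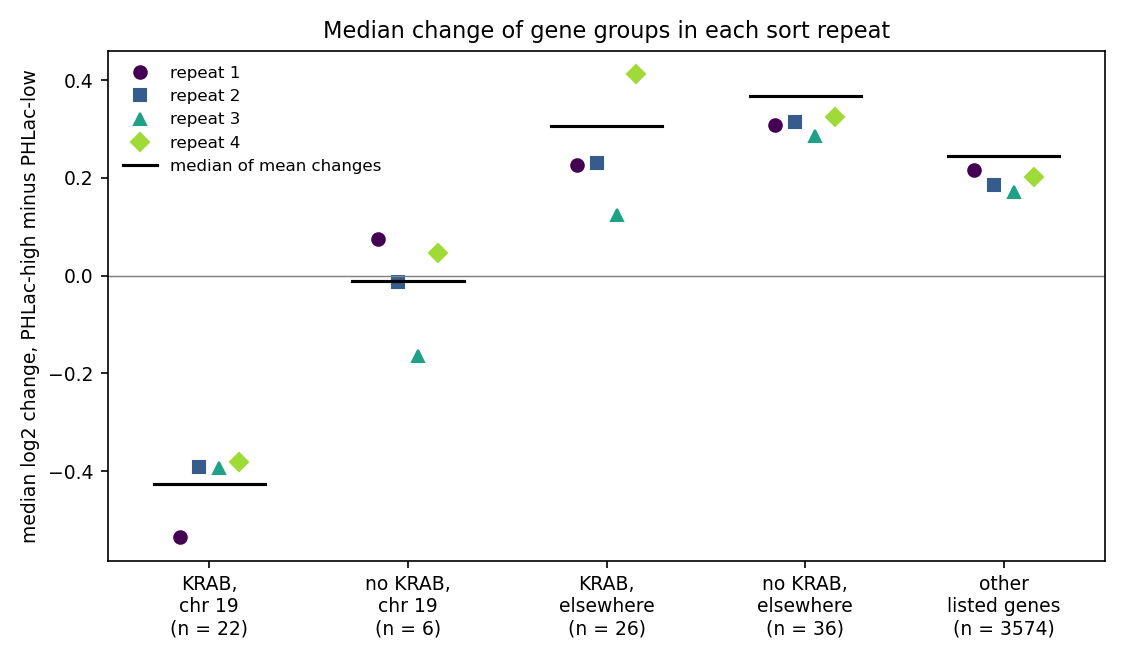
Median log2 change, PHLac-high minus PHLac-low, of ZNF genes split by chromosome 19 and KRAB domain and of the other listed genes. Symbols are the 4 repeats and lines the median of the genes' mean changes; KRAB genes on chromosome 19 lie below 0 in each repeat (-0.54 to -0.38) and KRAB genes elsewhere above 0 (0.12 to 0.41).

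Level moved with direction too. Coding ZNF genes that were higher had a median of 1019 normalised counts and those that were lower 363. Of 12 ZNF genes with a mean under 200, 2 were higher, and of 11 with a mean of 2000 or over, 9 were. Non-ZNF genes had the same order, with 31.9% higher under 200 and 79.8% higher from 2000. Spearman's rho between change and mean count was 0.42 over 90 coding ZNF genes and 0.27 over 3574 others. Within the span from 200 to 500 counts, 2 of 13 ZNF genes on chromosome 19 were higher, 10 of 18 ZNF genes elsewhere, and 4 of 35 non-ZNF genes on chromosome 19. Of all non-ZNF genes in this span 34.8% were higher. On chromosome 19 and elsewhere, 0 of 5 and 2 of 7 ZNF genes were higher under 200. From 500 to 1000 it was 1 of 4 and 9 of 15, from 1000 to 2000 2 of 4 and 12 of 15, and from 2000 1 of 2 and 8 of 9. Non-ZNF genes of chromosome 19 had 12 of 42, 7 of 28, 9 of 31 and 54 of 96 in these spans. The parts of level, GC content and chromosome in the direction of a gene were not tested against each other.

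**Figure D5:**
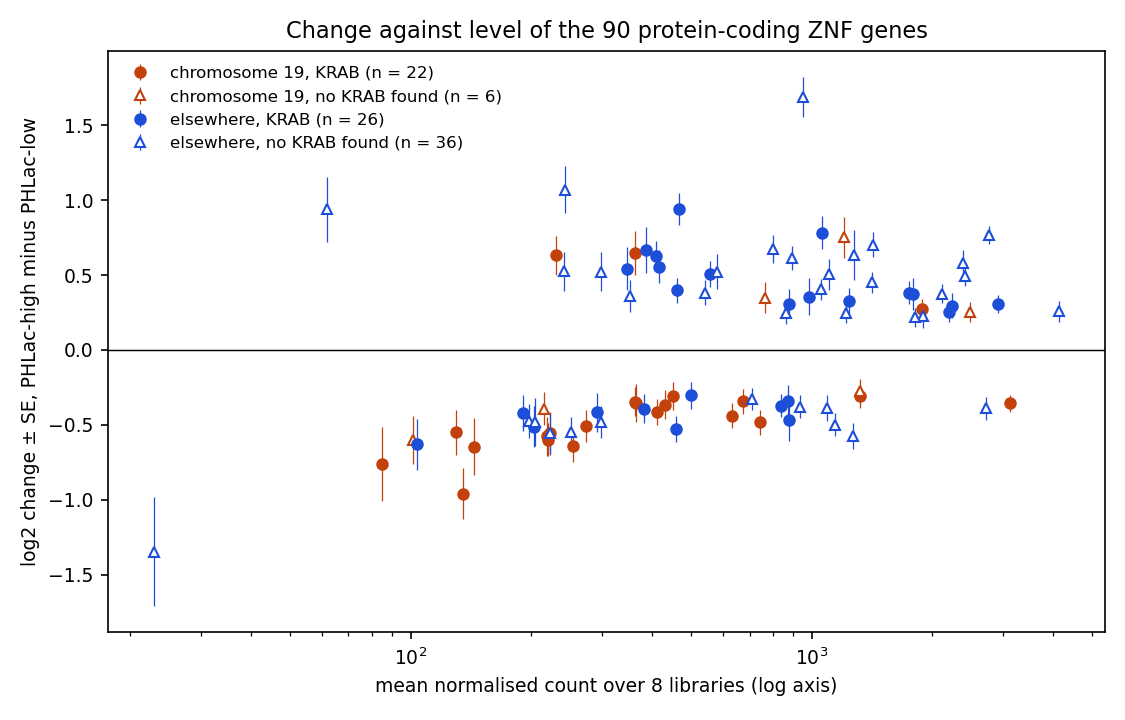
Log2 change ± SE (vertical axis) against mean normalised count over 8 libraries (horizontal log axis) for the 90 coding ZNF genes; colour gives the chromosome and filled circles a KRAB domain. Chromosome 19 KRAB genes lie below 0 except 3 (ZNF317, ZNF416 and ZNF551), and the genes above 2000 counts are mostly above 0.

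Many of the lower ZNF genes of chromosome 19 were neighbours. With 22 of 28 lower, neighbours that are both lower are frequent in any order. Whether they were more frequent here was not tested. In the stretch chr19:34677639-37719790 (GRCh38), chosen after the directions were seen, all 7 listed ZNF genes were lower (ZNF302, ZNF599, ZNF792, ZNF345, ZNF585A, ZNF570 and ZNF607), and so were the 8 other listed genes within it. In chr19:51804816-53580269 all 8 listed genes were ZNF genes and all were lower (ZNF577, ZNF766, ZNF610, ZNF808, ZNF611, ZNF160, ZNF347 and ZNF331), from -0.31 to -0.76. Of 27 pairs of neighbouring ZNF genes whose lower coordinates lay within 500 kb, 20 moved in the same direction (74.1%), against 64.7% of 2311 such pairs among all listed genes. The latter share does not allow for how many ZNF genes of chromosome 19 were lower. A cluster on chromosome 7 was mixed, with 2 of 6 ZNF genes higher: ZNF777 and the PARIS repressor gene ZNF746 rose, while ZNF783, ZNF467, ZNF862 and ZNF775 fell. The 3 other listed genes within its span were all lower (median -0.71).

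The end of the long arm of chromosome 19 was also mixed and held close neighbours of opposite direction. Over chr19:57389850-57717301, ZNF548 (-0.44 ± 0.08) and ZNF419 (-0.60 ± 0.11) fell, whereas ZNF416 (0.63 ± 0.13), ZNF134 (0.35 ± 0.11) and ZNF551 (0.65 ± 0.15) rose. The lower coordinates of ZNF416 and ZNF419, which lie on opposite strands, are 83.9 kb apart. It was at 144, 181, 178 and 225 normalised counts in PHLac-low and at 276, 284, 280.3 and 277 in PHLac-high, without overlap. ZNF551 was at 244, 284, 331 and 270.1 against 469, 405, 369.8 and 532, also without overlap. On chromosome 3, ZNF660 and ZNF35 start 70.5 kb apart on the same strand and gave the most negative and the second most positive change of the coding family. Other neighbours of opposite direction were ZNF117 and ZNF92, ZNF747 and ZNF689, and ZNF581 and ZNF787.

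Promoter windows, from 250 bases before to 50 bases after the RefSeq start (GRCh38.p14), were found for 80 of the 92 genes. Those of 5 close neighbours, 3 on chromosome 19 and 2 on chromosome 3, are shown because their transcripts moved in opposite directions. Each is written 5′ to 3′ on the strand of its gene, and capitals mark the ETS core CCGGAAG or its reverse complement CTTCCGG and, in the chromosome 19 windows, a run ACTACATT that was noticed on comparing them. The windows are ZNF419 (chr19:57487500-57487799, plus strand), ZNF416 (chr19:57578862-57579161, minus strand), ZNF551 (chr19:57681727-57682026, plus strand), ZNF660 (chr3:44584714-44585013, plus strand) and ZNF35 (chr3:44648482-44648781, plus strand).
ZNF419: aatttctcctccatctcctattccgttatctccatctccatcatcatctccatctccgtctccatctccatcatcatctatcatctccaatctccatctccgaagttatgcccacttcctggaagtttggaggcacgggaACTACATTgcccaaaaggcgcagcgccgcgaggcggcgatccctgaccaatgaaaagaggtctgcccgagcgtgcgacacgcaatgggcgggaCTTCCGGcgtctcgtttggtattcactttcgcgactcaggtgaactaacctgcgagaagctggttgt
ZNF416: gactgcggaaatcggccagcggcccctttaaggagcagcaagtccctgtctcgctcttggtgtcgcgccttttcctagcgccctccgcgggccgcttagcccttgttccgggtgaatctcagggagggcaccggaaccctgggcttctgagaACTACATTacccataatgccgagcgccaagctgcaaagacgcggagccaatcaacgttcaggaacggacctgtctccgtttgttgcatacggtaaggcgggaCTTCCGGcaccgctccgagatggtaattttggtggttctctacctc
ZNF551: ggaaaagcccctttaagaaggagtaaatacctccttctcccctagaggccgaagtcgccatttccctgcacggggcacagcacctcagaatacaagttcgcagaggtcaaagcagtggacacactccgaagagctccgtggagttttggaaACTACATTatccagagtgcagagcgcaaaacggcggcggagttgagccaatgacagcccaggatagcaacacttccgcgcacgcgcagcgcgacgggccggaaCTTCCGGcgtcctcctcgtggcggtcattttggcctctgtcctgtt
ZNF660: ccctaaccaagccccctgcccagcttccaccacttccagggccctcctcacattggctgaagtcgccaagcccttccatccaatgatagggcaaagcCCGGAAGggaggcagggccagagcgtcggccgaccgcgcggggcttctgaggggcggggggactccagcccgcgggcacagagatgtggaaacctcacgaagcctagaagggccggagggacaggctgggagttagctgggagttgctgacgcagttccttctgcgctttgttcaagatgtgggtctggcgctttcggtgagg
ZNF35: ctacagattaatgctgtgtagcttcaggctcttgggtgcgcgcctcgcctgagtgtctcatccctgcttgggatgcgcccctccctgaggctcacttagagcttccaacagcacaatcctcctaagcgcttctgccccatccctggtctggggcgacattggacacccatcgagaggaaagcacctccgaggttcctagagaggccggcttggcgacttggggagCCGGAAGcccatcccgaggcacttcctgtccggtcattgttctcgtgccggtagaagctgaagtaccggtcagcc
The 3 chromosome 19 windows each held 1 ETS core and 1 copy of the run, in the lower ZNF419 as in the higher ZNF416 and ZNF551. The core lay 17 bases before the start in ZNF419 and began 5 bases after it in ZNF416 and ZNF551. Both chromosome 3 windows held 1 ETS core and no copy of the run.

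Searched on both strands, the ETS core was in 20 of 37 windows of ZNF genes that were higher and 18 of 43 of those that were lower. It was in 38.6% of 508 windows of ZNF symbols and 10.7% of all 27305 windows. The run ACTACATT was in 5 of 27 listed chromosome 19 ZNF windows, 9.65% of ZNF windows and 1.08% of all windows. The SP1 box GGGCGG was in 22 of 37 and 30 of 43 (44.6% of all windows), the CCAAT box in 18 of 37 and 22 of 43 (35.7%), and the STAT palindrome TTCNNNGAA in 6 of 37 and 7 of 43 (7.88%). These counts describe letters in the windows and say nothing of whether a factor binds there.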

How the data were processed

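The authors deposited 1 table for 8 libraries, 4 of each fraction, with a normalised read signal per gene and library, a log2 fold change and an adjusted p-value. Per the submitters' processing notes, STAR, SAMtools, Subread and DESeq2 were used with build hg38. Their settings and versions are not given in the sources used here. Each library's deposited signal falls on steps of a fixed size to within 0.01 of a step, that is, read counts over a size factor, called normalised counts here. Reads in the listed genes ran from 8979276 to 23176205 per library, which is not the whole depth.

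The test was limma 3.58.1 (R 4.3.3) with a mean-variance trend on log2(normalised count + 1), with the repeat as a block and Benjamini-Hochberg adjustment over all 3666 genes at 0.05. The scale understates the change of low genes. The series description states that samples are paired. Across genes, deviations from the group mean correlated at 0.53 to 0.76 within a repeat and at most at 0.27 between repeats. Because the table was selected by p-value in these libraries, calls cannot estimate false positives. Since the table's log2 fold changes of the 92 ZNF genes differ from a DESeq2 1.42.0 fit with the block by at most 0.004, the directions of these genes are the authors' own.

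Genes were named by rule: those passing limma and moving 1 way in all 4 repeats, taking the 8 largest increases and 8 largest decreases with a mean of at least 200, the 5 highest means, and listed members of 46 functional names (24 genes in all). Members and lists were chosen with earlier results of these data known. Level spans, the 10-finger split, stretches and the 500 kb window were set after the values were seen. Coordinates, GC content and proteins came from GENCODE 29 (longest coding transcript), KRAB and SCAN domains from profiles searched with HMMER 3.4 (E-value 1e-05), fingers from a residue pattern, and promoter windows from RefSeq. Alternatives were no block, each repeat left out, a pseudocount of 0.1, upper quartile scaling, GC and length correction, a mean of at least 100, genes with antisense symbols left out, edgeR 4.0.16 and DESeq2. The upper quartile and the curves for GC content and length were taken over the listed genes alone. Groups of genes were described by counts and medians, without a test.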

Additional observations from a re-analysis of the deposited data

Results flagged for a closer look

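In 7 of 48 groups of 4 libraries examined, 1 library lay far from the others for the range of its group. Chance gives about 1 in 20 groups, or 2.4, where groups are independent. These groups share the same libraries, so 7 cannot be read as an excess. The figure given for each is the gap of the outlying library to its nearest neighbour over the range of the group. The PHLac-low library of repeat 4 was lowest for ZNF148 (0.849), ZNF331 (0.830) and ZNF419 (0.872). The PHLac-high library of repeat 4 was highest for ZNF326 (0.831), at 3610.5 against 2162 next, and for ZNF611 (0.977), at 213 against 168 to 169 in the other 3. The PHLac-high library of repeat 3 was lowest for ZNF622 (0.856) and for ZNF775 (0.905).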

How the results depend on the processing

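The calls depend on the repeat block: without it 38 ZNF genes passed, 26 higher and 12 lower. Leaving out 1 repeat gave 85 to 92 calls, with 45 to 47 higher and 40 to 45 lower (94.6 to 98.9% of all listed genes passed). Upper quartile scaling gave 67 calls, of which 22 were higher (32.8%, against 51.1%), and GC and length correction gave 71, of which 45.1% were higher. These 2 settings, both computed over the listed genes alone, turned the ZNF median from 0.22 to -0.00372 and -0.0195. They moved the KRAB median to -0.57 and -0.51, the median without KRAB to 0.080 and 0.13, that of chromosome 19 to -0.60 and -0.58, and that of other chromosomes to 0.093 and 0.14. In the highest GC quintile they gave 0.12 and 0.69. In the lowest GC quintile scaling gave -0.53, and a mean of at least 100 gave -0.042. Leaving out 1 repeat gave medians of 0.19 to 0.22 for all ZNF genes, -0.34 to -0.32 with KRAB, 0.26 to 0.33 without, -0.41 to -0.37 on chromosome 19, 0.27 to 0.37 elsewhere, -0.29 to -0.26 in the lowest GC quintile and 0.30 to 0.40 in the highest. Of 240 values of the 24 named genes under the alternatives, 220 kept direction and side of the threshold. The pseudocount of 0.1, edgeR and DESeq2, which keep the same size factors, gave 24 of these each. Another 18 lost the threshold and 2 turned, both of ZNF148 (-0.00058 and -0.0259 under the same 2 settings). The cause was not tested. Depth is part of the limit, since ZNF660 rests on as few as 7 reads in a library.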

Other observations

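Of 24 genes looked for whose proteins work with KRAB ZNF proteins in silencing, 6 were in the table and the other 18 have no value here. By limma with the block 5 of the 6 fell and 1 rose, where 41.2% of all listed genes fell. The H3K9 methyltransferase gene SETDB1 had means of 1891 ± 326 (PHLac-low) and 1414 ± 215 (PHLac-high) normalised counts (SD, n = 4) and changed by -0.42 ± 0.06 (SE; adjusted p = 0.000744). Its cofactor gene ATF7IP changed by -0.36 ± 0.06, the DNA methyltransferase gene DNMT3A by -0.37 ± 0.07, the H3K9 methyltransferase gene EHMT2 by -0.27 ± 0.07 and the deacetylase gene HDAC1 by -0.24 ± 0.06. SUV39H2, another H3K9 methyltransferase gene, changed by 0.32 ± 0.08. Without the block, ATF7IP alone of the 6 passed (adjusted p = 0.0266).

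Under the authors' scaling, of the ZBTB genes 8 of 14 were higher, of the ZSCAN genes 2 of 3, of the ZKSCAN genes 2 of 4 and of the ZFP genes 1 of 5, against 58.8% of all listed genes. ZNF genes with a SCAN domain were higher in 4 of 7 cases.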
